A study of Mus musculus with 4 samples.

Results

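The integrin and laminin genes of the mouse genome were followed through the cells of prostate tumours. Members were taken by symbol alone: every gene named as an integrin alpha chain, an integrin beta chain or a laminin alpha, beta or gamma chain, which gave 37 of the 32285 genes in the files (18 integrin alpha, 8 integrin beta and 11 laminin genes). Droplet-based single-cell RNA sequencing of transcript 3' ends was used on tumours of 2 genotypes, with 2 libraries of each. DKO mice carried Nkx3.1CreERT2, a tamoxifen-inducible Cre driven from a prostate epithelial gene, with floxed alleles that included Smad4 (Smad4L/L). TKO mice carried the same Cre and the same floxed alleles, and floxed Pygo2 in addition (Pygo2L/L). Smad4 was therefore targeted in every library, and Pygo2 was the only labelled difference. The Cre driver is epithelial, so stromal and immune cells were not the targeted cells. Tumours 10 or 17 weeks past tamoxifen are named in the series text, but the time of a given library is not in its labels. Each library had its own hashtag antibody, and dissociated cells were pooled into a single load after red cell lysis and removal of Annexin V-binding cells.

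Integrins are receptors of the cell surface made of an alpha and a beta chain, and the pairing decides which ligand is held: collagen, laminin, proteins with an RGD motif such as fibronectin, or counter-receptors on other cells. Laminins are trimers of an alpha, a beta and a gamma chain, and they form the sheet of the basement membrane on which prostate epithelium rests. Leukocytes use the chains that pair with Itgb2 and Itgb7 to leave vessels and to settle in tissue, while epithelial cells anchor through Itga6 and Itgb4 to laminins that hold the Lama3 and Lamb3 chains.

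In all, 3381 of 3508 cell barcodes were kept, 617 and 759 from DKO and 1208 and 797 from TKO, with 9167770 to 18360201 unique molecular identifiers (UMIs, counted transcripts) per library. No barcode occurred in more than 1 library, and in every kept cell the library's own hashtag led the hashtag counts. Members held 20264 to 36958 UMIs per library, which was 0.194% to 0.221% of all UMIs. Of the 37 members, 32 had at least 100 UMIs over all libraries, from 100 for Itgad to 15257 for Itgav. Itga10, Itga11, Itga7, Itga8 and Lamc3 had fewer (49, 99, 98, 64 and 15 UMIs). Cells were clustered without the members, and clusters were named from marker genes. Neutrophil-like cells were the most numerous (1347 cells), followed by T- and NK-like cells (598), dendritic-like cells (267), epithelial-like cells (201), macrophage- and monocyte-like cells (180) and fibroblast-like cells (157). A cluster of 127 cells led by Foxp3, the factor that defines regulatory T cells, stayed unnamed because Il1rl1, a marker of innate lymphoid cells, was also among its leading genes. Clusters led by Il17a and Zbtb16 (198 cells), by Cd163l1 and Trdc (89 cells) and by Gpnmb and Atp6v0d2 (73 cells) also stayed unnamed. Endothelial-like cells numbered 13 and mast-like cells 14, so their levels rest on few cells. Levels are given as CPM, the member's UMIs scaled to 1000000 UMIs of the class in a library, as mean ± SD over the 4 libraries. Classes were formed on other genes of the same cells, so differences between classes are described and not tested.

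Promoters of 4 members are shown because the results turn on these genes: Itgav and Itgb8, the chains of a receptor that activates latent TGF-beta and both highest in the Foxp3 cluster, Itgam, a myeloid chain highest in neutrophil-like cells, and Lamb3, an epithelial laminin chain also highest there. Each sequence runs 5' to 3' on the gene's strand from 250 bases before to 50 bases after a transcript start, from RefSeq on GRCm38.p6. The Itgav window is chr2:83724147-83724446 on the plus strand, the Itgb8 window chr12:119238227-119238526 on the minus strand, the Itgam window chr7:128062390-128062689 on the plus strand, and the Lamb3 window, at the first of its listed starts, chr1:193301744-193302043 on the plus strand. Capitals mark GAGGAA on either strand (TTCCTC when read on the other), the core that the myeloid and B-cell factor PU.1 can bind.
Itgav: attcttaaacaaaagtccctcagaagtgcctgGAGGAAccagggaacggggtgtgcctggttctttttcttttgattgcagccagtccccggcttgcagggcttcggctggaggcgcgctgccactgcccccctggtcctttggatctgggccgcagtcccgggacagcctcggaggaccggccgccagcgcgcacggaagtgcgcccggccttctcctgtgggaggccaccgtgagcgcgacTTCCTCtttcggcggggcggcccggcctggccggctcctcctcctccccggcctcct
Itgb8: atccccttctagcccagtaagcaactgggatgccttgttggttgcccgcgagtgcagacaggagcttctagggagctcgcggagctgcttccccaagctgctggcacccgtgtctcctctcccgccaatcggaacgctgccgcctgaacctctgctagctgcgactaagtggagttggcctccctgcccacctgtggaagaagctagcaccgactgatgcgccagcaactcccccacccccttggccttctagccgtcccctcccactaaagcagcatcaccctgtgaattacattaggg
Itgam: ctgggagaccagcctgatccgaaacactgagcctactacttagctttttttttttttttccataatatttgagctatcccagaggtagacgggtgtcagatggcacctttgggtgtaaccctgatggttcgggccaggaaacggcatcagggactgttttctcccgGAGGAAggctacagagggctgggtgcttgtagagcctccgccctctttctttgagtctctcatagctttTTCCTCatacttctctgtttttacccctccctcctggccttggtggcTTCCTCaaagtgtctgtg
Lamb3: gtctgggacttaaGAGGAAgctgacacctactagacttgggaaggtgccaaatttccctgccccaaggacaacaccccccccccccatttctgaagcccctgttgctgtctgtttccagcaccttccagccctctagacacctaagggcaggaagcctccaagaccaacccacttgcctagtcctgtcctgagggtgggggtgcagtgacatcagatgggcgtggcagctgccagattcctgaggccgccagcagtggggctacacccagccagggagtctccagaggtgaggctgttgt
The windows held 2 matches for Itgav, 3 for Itgam, 1 for Lamb3 and none for Itgb8. Among all 32851 promoters of this length, 28.3% held the letters, and among the 26 windows listed for 23 members, 14 did. The forkhead core TAAACA, on either strand and searched on its own, was in 13.4% of all promoters and in 3 of the 26 member windows, 1 each for Itgav, Itgb6 and the other Lamb3 start. A match describes the letters and not the binding of a factor.

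Each member had a class in which its level was highest, as the heat map of mean levels shows, with the low-UMI cluster of 34 cells left out of the ranking. Endothelial-like cells held the highest level of 8 members, fibroblast-like cells of 7, epithelial-like cells of 5, macrophage- and monocyte-like cells and the Foxp3 cluster of 4 each, and neutrophil-like cells of 3. The range over libraries in the highest class was clear of the next class for Lama3, Lama5, Itga2, Itga4, Itgav, Itgb8, Itga5, Lama2 and Itga2b. Itga1 was also clear of the next class, in the 13 endothelial-like cells.

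**Figure D1:**
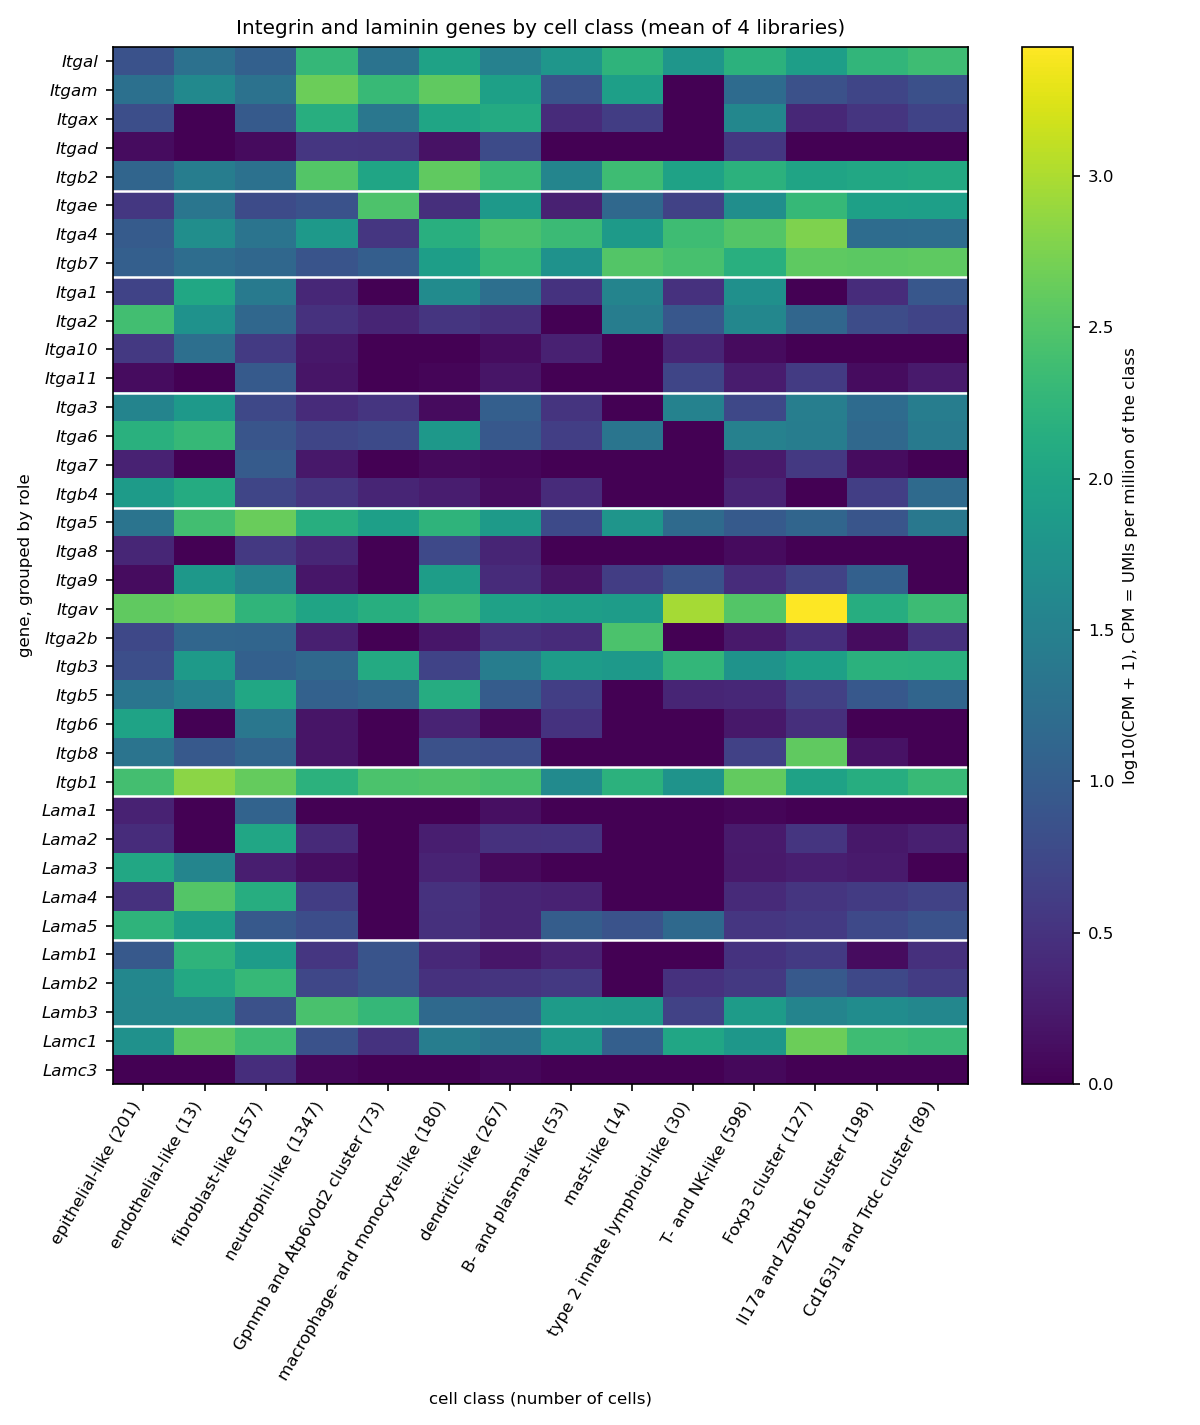
Mean level of 36 of the 37 genes (rows, grouped by role with white lines between roles) in 14 cell classes (columns, with cell numbers), as log10(CPM + 1) averaged over 4 libraries. Laminin chains stand out in the epithelial-like, endothelial-like and fibroblast-like columns, apart from Lamb3 in neutrophil-like cells and Lamc1 in lymphoid clusters, and Itgav reaches its highest level in the Foxp3 cluster.

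Among the RGD-binding and related receptors, Itgav was highest in the Foxp3 cluster, at 3473 CPM in DKO replicate 1, 2176 in DKO replicate 2, 2344 in TKO replicate 1 and 2683 in TKO replicate 2 (2669 ± 576 CPM). Every one of the 127 cells had an Itgav UMI. After each cell was thinned to 1000 UMIs, so that depth was equal, 86.6% still did, against 19.9% of T- and NK-like cells and 6.62% of neutrophil-like cells. Type 2 innate lymphoid-like cells, of which there were 30, followed at 929 ± 148 CPM. No library of another class reached the lowest Foxp3-cluster library.

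Itgb8, the beta chain that pairs with Itgav, had the same leading cluster. Its level there was 225 CPM in DKO replicate 1, 273 in DKO replicate 2, 642 in TKO replicate 1 and 431 in TKO replicate 2 (393 ± 188 CPM), and it was itself among that cluster's 10 leading genes. Epithelial-like cells came next at 19.5 ± 10.8 CPM and fibroblast-like cells at 12.1 ± 4.19 CPM. In T- and NK-like cells it was at 3.60 CPM and in neutrophil-like cells at 0.562 CPM. An Itgb8 UMI was present in 70.1% of Foxp3-cluster cells, against 3.18% of T- and NK-like cells at a similar median depth (11215 and 11908 UMIs per cell) and 0.371% of neutrophil-like cells (6873 UMIs per cell). By library the share was 55.6% (exact Clopper-Pearson 95% interval 35.3 to 74.5), 71.4% (53.7 to 85.4), 73.2% (57.1 to 85.8) and 79.2% (57.9 to 92.9) in DKO replicates 1 and 2 and TKO replicates 1 and 2, and these intervals cover counting error only. Since every cell of the cluster had an Itgav UMI, 89 of 127 cells held both chains.

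**Figure D2:**
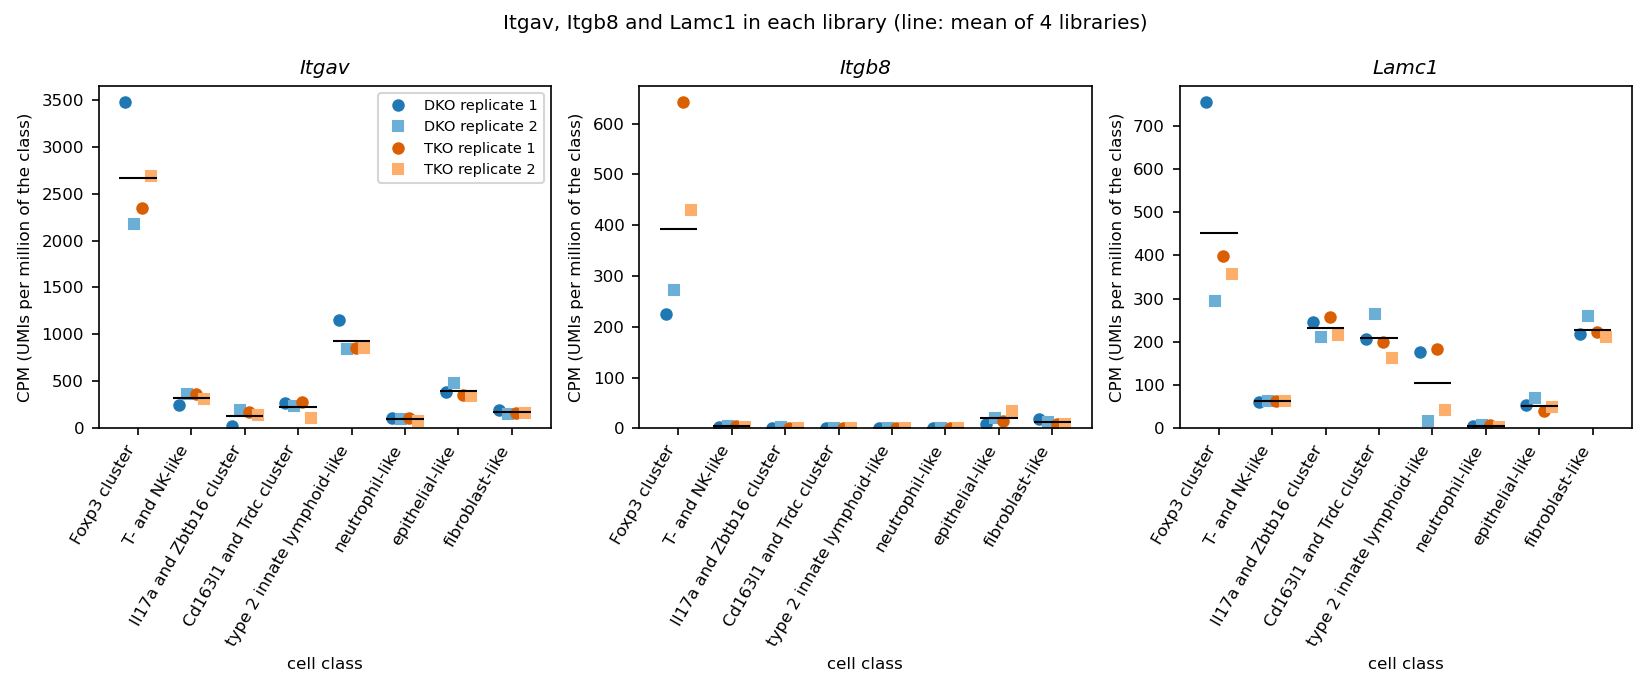
CPM of Itgav, Itgb8 and Lamc1 (vertical axes) in 8 cell classes (horizontal axes), with 1 point per library and a line at the mean of the 4 libraries. All 4 libraries of the Foxp3 cluster lie above every library of the other classes drawn for each gene, and for Itgb8 the TKO points (642 and 431) lie above the DKO points (225 and 273).

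Other beta partners of Itgav had other patterns. Itgb6, which also activates TGF-beta, was highest in epithelial-like cells (95.9 ± 61.4 CPM, from 18.1 to 161 CPM), and 46.8% of these cells held UMIs of both Itgav and Itgb6. Itgb5 was highest in macrophage- and monocyte-like cells (131 ± 35.1 CPM) and overlapped fibroblast-like cells (111 ± 17.0 CPM). In fibroblast-like cells, which were the deepest (median 43620 UMIs per cell), 75.8% held both Itgav and Itgb5. Itgb3 was highest in type 2 innate lymphoid-like cells (186 ± 62.5 CPM), where 70.0% of 30 cells held it together with Itgav, and it overlapped the Il17a and Zbtb16 cluster (154 ± 35 CPM) and the Cd163l1 and Trdc cluster (150 ± 31.0 CPM). Itga2b, the platelet and mast cell partner of Itgb3, was at 285 ± 86.1 CPM in the 14 mast-like cells and at 12.5 CPM or less in the other named classes. The mast list scored 0.571 in these cells with 6 markers raised. Only 1 of its markers, Cpa3, was among the 10 leading genes, which also held Mcpt8, Gata2 and Cd200r3, so the name mast-like is uncertain. Itga5, the fibronectin receptor chain, was highest in fibroblast-like cells at 397, 496, 431 and 430 CPM in DKO replicates 1 and 2 and TKO replicates 1 and 2 (438 ± 41.6 CPM), and 89.2% of these cells held it with Itgb1. Itga9 was highest in macrophage- and monocyte-like cells (80.5 ± 20.2 CPM), as was Itga8 at 4.70 ± 3.13 CPM with 18 UMIs, and both overlapped other classes.

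The beta-2 leukocyte integrins bind ICAMs and complement fragments. Itgb2 itself was highest in macrophage- and monocyte-like cells (386 ± 97.7 CPM) and overlapped neutrophil-like cells (320 ± 23.0 CPM). Itgam was highest in neutrophil-like cells, at 521, 476, 371 and 468 CPM in the same order of libraries, with macrophage- and monocyte-like cells from 250 to 700 CPM (699.6 in DKO replicate 1). UMIs of Itgam and Itgb2 occurred together in 86.1% of macrophage- and monocyte-like and 63.5% of neutrophil-like cells. Itgax, often used to mark dendritic cells, was at 139 ± 28.2 CPM in neutrophil-like and 125 ± 28.5 CPM in dendritic-like cells, and these ranges overlapped. By share of cells the order was the reverse, with 41.9% of neutrophil-like and 73.4% of dendritic-like cells positive at median depths of 6873 and 27101 UMIs, and thinned to 1000 UMIs the shares were 12.8% and 9.36%. Itgal was highest in the Cd163l1 and Trdc cluster (228 ± 55.3 CPM), overlapped neutrophil-like cells (189 ± 77.5 CPM), and was found together with Itgb2 in 66.1% of T- and NK-like cells. Itgad was low throughout, and 40 of its 100 UMIs were in dendritic-like cells, mostly in a cluster of 43 cells led by Siglech (28.5 ± 10.1 CPM). That cluster was also led by Cox6a2, a gene that overlaps Itgad on the opposite strand, so the Itgad value is uncertain.

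Of the chains that guide lymphocytes to mucosa, Itgb7 was highest in the Cd163l1 and Trdc cluster (381 ± 82.3 CPM), with the Foxp3 cluster (371 ± 76.0 CPM) and the Il17a and Zbtb16 cluster (360 ± 55.6 CPM) inside its range. Itga4, which pairs with Itgb7 or Itgb1, was highest in the Foxp3 cluster at 468, 533, 617 and 707 CPM in DKO replicates 1 and 2 and TKO replicates 1 and 2, above T- and NK-like cells (327 ± 68.0 CPM) in every library. Within dendritic-like cells it was uneven: the cluster led by Fscn1 and Ccr7 (35 cells), genes of migrating dendritic cells, held 926 ± 167 CPM, against 153 ± 24.0 CPM in the cluster led by Cd209a (189 cells). Both Itga4 and Itgb7 were detected in 78.7% of Foxp3-cluster cells. Itgae, the partner of Itgb7 that binds E-cadherin, reached 294 ± 134 CPM in the Gpnmb and Atp6v0d2 cluster, but only 15.1% of those 73 cells held a UMI. In the Foxp3 cluster it was at 194 ± 60.8 CPM in 58.3% of cells, and 54.3% held it together with Itgb7. Its ligand Cdh1, a companion gene, was highest in epithelial-like cells (853 ± 102 CPM).

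The collagen receptor chains Itga1 and Itga2 both lie on chromosome 13, and Itga1 overlaps Pelo on the same strand, so its values are uncertain. Itga2 was highest in epithelial-like cells at 322, 282, 243 and 125 CPM in DKO replicates 1 and 2 and TKO replicates 1 and 2, in 63.7% of cells. Outside the epithelium, it was high in the cluster of 170 cells led by natural killer genes (104 ± 33.4 CPM, 52.4% of cells), against 5.29 ± 4.28 CPM in the cluster of 251 cells led by Cd8b1. Itga1 was at 108 ± 36.8 CPM in endothelial-like cells, followed by T- and NK-like cells (51.2 ± 11.8 CPM). Within the latter it was at 71.6 ± 17.8 CPM in the natural killer cluster and 53.2 ± 32.2 CPM in the Cd8b1 cluster, against 7.58 ± 6.55 CPM in the cluster led by Cd4. Fibroblast-like cells held 67 of the 99 Itga11 UMIs (8.43 ± 3.72 CPM). Itga10 had 49 UMIs and was highest in endothelial-like cells from 6 UMIs. Itgb1, the beta chain shared by these receptors, was detected in 2318 of 3381 cells and reached 679 ± 275 CPM in endothelial-like, 411 ± 40.5 CPM in fibroblast-like and 394 ± 50.6 CPM in T- and NK-like cells, which overlapped.

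Laminin chains and the laminin receptors were mainly genes of epithelium, fibroblasts and endothelium. In epithelial-like cells Lama5 varied little, at 170, 164, 169 and 174 CPM over the 4 libraries. Lama3 was at 105, 148, 112 and 86.8 CPM in DKO replicates 1 and 2 and TKO replicates 1 and 2. Fibroblast-like cells were highest for Lamb2 (196 ± 30.7 CPM), Lama2 (105 ± 18.9 CPM), Lama1 (11.2 ± 6.61 CPM), Lamc3 (11 of 15 UMIs) and the muscle-type receptor chain Itga7 (8.74 ± 2.73 CPM). Lama4 and Lamb1, chains of vessel laminins, were highest in endothelial-like cells (322 ± 142 and 169 ± 121 CPM) and next in fibroblast-like cells (137 ± 34.0 and 77.9 ± 6.15 CPM). Of the laminin companions in the basement membrane, Nid1 was at 332.4 ± 41.5 CPM in fibroblast-like cells and 378 ± 140 CPM in the low-UMI cluster, and Hspg2 and Col4a1 were at 502 ± 201 and 1573 ± 1025 CPM in endothelial-like cells. The receptor chains Itga6, Itgb4 and Itga3 were highest in endothelial-like cells (199 ± 130, 126 ± 121 and 70.5 ± 47.2 CPM) and overlapped epithelial-like cells (151 ± 42.9, 75.0 ± 18.1 and 34.1 ± 7.53 CPM). Itga6 overlaps Gm13663 and Gm13662 on the same strand, so its values, here and in the genotype comparisons, are uncertain. In TKO replicate 1 the 3 endothelial-like cells also held 3130 CPM of the 16 epithelial markers, against 21.4 to 132 CPM in the other libraries, and the part of this in the receptor levels was not tested.

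At a finer clustering (resolution 2.0) the epithelial-like cells split into 25 cells led by Krt5 and Krt14, keratins of basal epithelium, and the remaining cells, led by Pigr and Wfdc2. All 4 libraries gave cells to the smaller cluster, but only 3, 14, 5 and 3. Lama3 was at 285, 393, 658 and 588 CPM in the Krt5 and Krt14 cluster and at 96.5, 75.5, 41.1 and 12.5 CPM in the other, in DKO replicates 1 and 2 and TKO replicates 1 and 2. Itgb4 was likewise apart in every library, at 267 ± 41.4 against 45.3 ± 17.6 CPM, and so was Itga6, at 270 ± 56.1 against 130 ± 40.4 CPM. Lamb3 (119 ± 74.5 against 21.8 ± 16.6 CPM) was also apart over the libraries, whereas Itga3 (92.7 ± 49.5 against 26.0 ± 9.27 CPM) overlapped through TKO replicate 2. Lama5 lay the other way, at 103 ± 30.4 against 181 ± 9.03 CPM. UMIs of Itga6 and Itgb4 occurred together in 84.0% of the 25 cells and in 38.1% of the others. Cells of the Krt5 and Krt14 cluster were deeper (median 37680 against 13680 UMIs). Thinned to 1000 UMIs, the shares of cells with Itgb4 were 40.0% and 5.17%, and those with Lama3 20% and 6.90%.

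**Figure D3:**
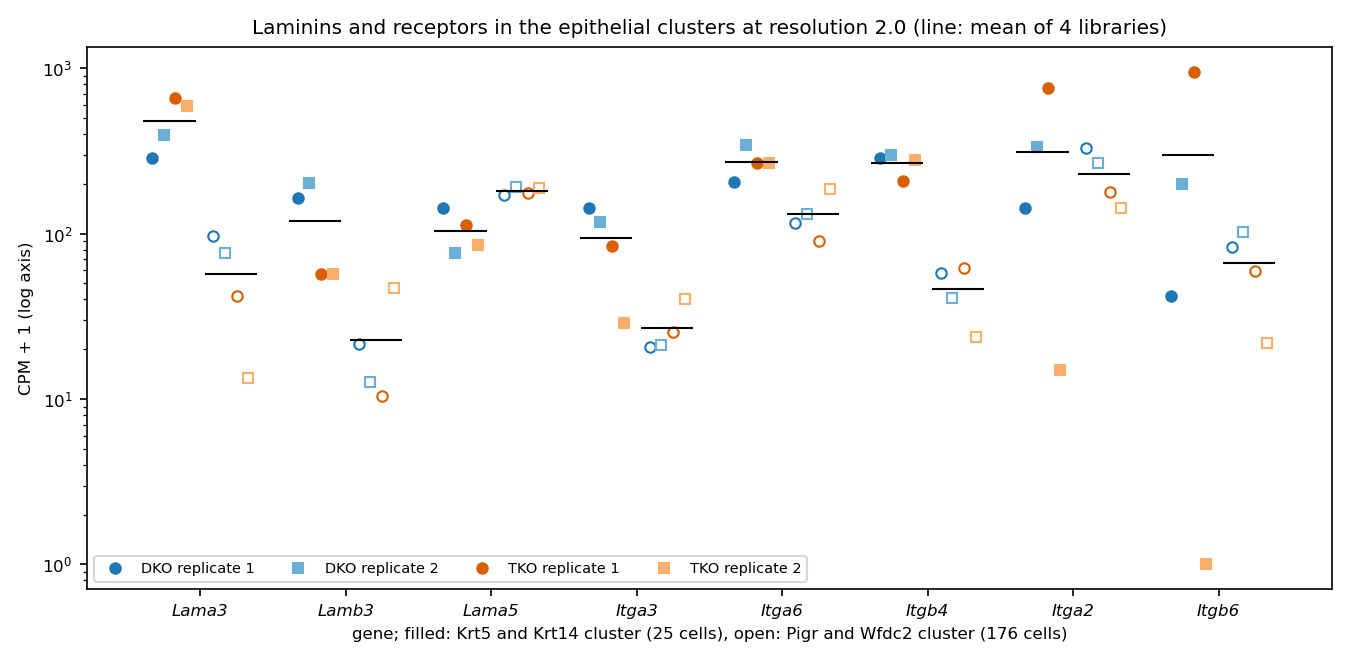
CPM + 1 on a log axis of 8 laminin and receptor genes (horizontal axis) in the Krt5 and Krt14 epithelial cluster (filled points, 25 cells) and the Pigr and Wfdc2 epithelial cluster (open points), with 1 point per library and lines at the means. Filled and open points are separate for Lama3, Lamb3, Itga6, Itgb4 and Lama5 and overlap for Itga2, Itga3 and Itgb6.

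Lamb3 and Lamc1 were the laminin genes with their highest level outside epithelium, fibroblasts and endothelium. Lamb3 was at 343, 278, 264 and 236 CPM in neutrophil-like cells of DKO replicates 1 and 2 and TKO replicates 1 and 2, in 64.7% of cells (22.6% after thinning), against 35.9 CPM in epithelial-like and 6.08 CPM in fibroblast-like cells. Its partner chain Lama3 was nearly absent there, with 3 UMIs in 1347 cells. In GENCODE M21 the Lamb3 gene spans chr1:193207699-193343878 on the plus strand, and this span holds G0s2 (chr1:193272161-193273217, minus strand, touching no Lamb3 exon) and overlaps Hsd11b1 on the opposite strand. It also overlaps 4930570N18Rik on the same strand and Gm37650 on the opposite strand, and the levels of these were not examined. The RefSeq start shown above lies beyond G0s2. G0s2, a lipase inhibitor abundant in neutrophils, was at 4292 CPM in these cells, and Hsd11b1, a glucocorticoid-activating enzyme, at 349, 229, 212 and 202 CPM in the same order of libraries. A Lamb3 UMI was found in 79.9%, 72.0%, 66.0% and 62.2% of neutrophil-like cells with a G0s2 UMI and in 35.3%, 43.2%, 21.6% and 23.1% of those without. Depth was not matched between these cells. Mean Lamb3 was at 153 CPM and G0s2 at 3935 CPM in the neutrophil-like cluster led by Ltc4s, and at 322 and 3568 CPM in that led by Il23a. Both were highest in that led by Retnlg (383 and 5544 CPM). The next class, the Gpnmb and Atp6v0d2 cluster, overlapped neutrophil-like cells in Lamb3 (316, 23.9, 151 and 269 CPM), with G0s2 at 352 and Hsd11b1 at 37.7 CPM. Lamb3 also reached 75.3 CPM in T- and NK-like cells, where G0s2 was at 25.6 CPM and Hsd11b1 at 63.3 CPM. Whether counting used strand is not given in the sources used here. The leukocyte Lamb3 value is therefore uncertain, and the part of these neighbours in it was not tested. Lamc1, the gamma chain of most laminins, was at 754, 295, 398 and 357 CPM in the Foxp3 cluster, in 87.4% of cells, next to endothelial-like (369 ± 158 CPM), Il17a and Zbtb16 (232 ± 22.6 CPM), fibroblast-like (228 CPM) and Cd163l1 and Trdc cells (208 CPM). In neutrophil-like cells it was at 6.39 CPM, in 4.53% of cells. Its share in the Foxp3 cluster after thinning was 34.6%, against 0.977% in neutrophil-like cells.

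**Figure D4:**
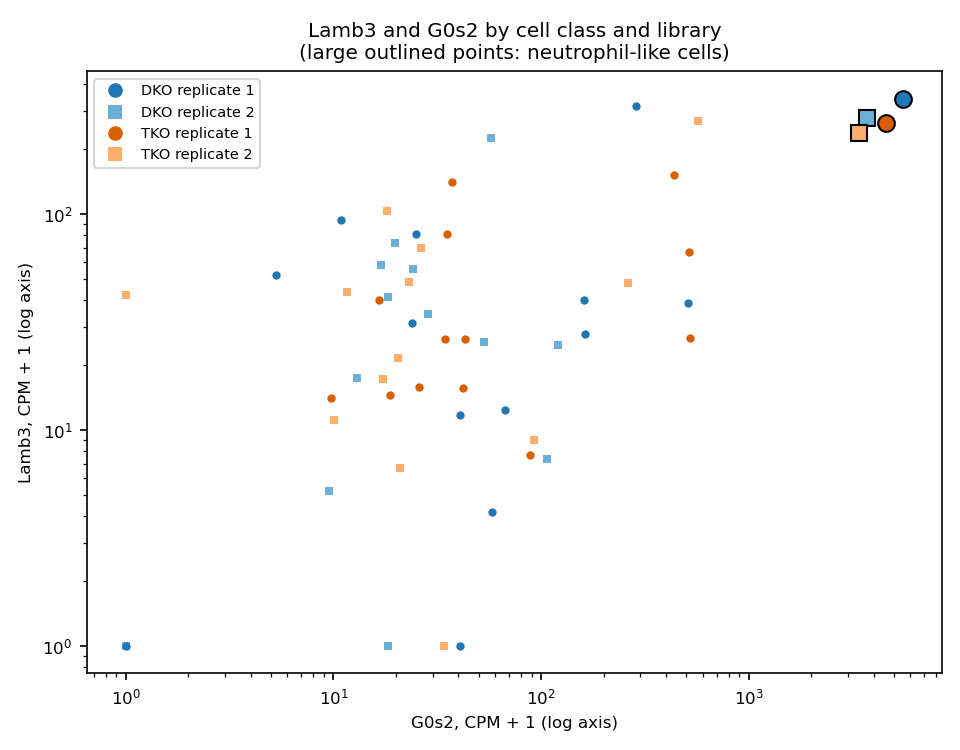
Lamb3 against G0s2, each as CPM + 1 on log axes, with 1 point per cell class and library and the neutrophil-like class as large outlined points. The 4 neutrophil-like points lie at the upper right, with G0s2 between 3377 and 5534 CPM and Lamb3 between 236 and 343 CPM.

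The genotypes were then compared within classes, to ask whether the added Pygo2 deletion went with a change in member levels. UMIs were summed per library and class and tested with edgeR over all genes, and a gene was called at a Benjamini-Hochberg adjusted p below 0.05. Log2 changes are TKO against DKO. Whether the libraries of 1 genotype stem from different mice is not in the labels, and a p-value here reflects the spread between libraries, which may be technical. Calls were few in every class, and Itgb8 in the Foxp3 cluster was the only member called by this test.

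In the Foxp3 cluster, Itgb8 rose in TKO. It had 59 UMIs (225 CPM) and 139 UMIs (273 CPM) in DKO replicates 1 and 2, against 327 UMIs (642 CPM) and 117 UMIs (431 CPM) in TKO replicates 1 and 2. Both TKO libraries were above both DKO libraries. The log2 change was 1.15 ± 0.27 (SE, edgeR adjusted p = 0.0416). Of 12 members tested this was the only call, beside 16 of 5624 genes called in this cluster (0.284%). The call was lost with DESeq2 (log2 1.14, adjusted p = 0.253), and in edgeR without DKO replicate 1 (1.03, adjusted p = 0.0748), without TKO replicate 1 (0.86, adjusted p = 0.86) and with the members kept in the clustering genes (1.16, adjusted p = 0.0537). Itgav, its partner, did not pass (log2 -0.11), nor did Itga4 (0.44), Itga3 (-0.78), Itgae (-0.45) and Itgb7 (-0.31), and the median change was -0.07 for the 12 members and 0.01 for all genes tested. The 12 T markers summed to 3111, 3740, 4158 and 3971 CPM in the same order of libraries, which was also higher in TKO. Other lists without overlap between genotypes were the monocyte list (724, 605, 383 and 460 CPM, lower in TKO) and, higher in TKO, the dendritic list (826, 719, 954 and 832 CPM), the macrophage list (30.5, 29.5, 49.1 and 62.6 CPM), the endothelial list (122, 112, 139 and 202 CPM), the luminal list (179, 208, 212 and 328 CPM) and the NK list (53.3, 59.0, 72.6 and 73.6 CPM). The part of these in the Itgb8 value was not tested. Of the 29 companion adhesion genes tested, 0 were called by edgeR or DESeq2. An unadjusted p below 0.05 was found for 5 (17.2%, against 5.9% of all genes), with the smallest for Rap1b (log2 -0.61), Vcl (-1.15) and Cd81 (0.62).

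Macrophage- and monocyte-like cells showed the widest spread of a member. Itga6, a laminin receptor chain, had 198 UMIs (189 CPM) and 40 UMIs (49.5 CPM) in DKO replicates 1 and 2, against 28 UMIs (14.6 CPM) and 6 UMIs (8.57 CPM) in TKO replicates 1 and 2. The genotypes did not overlap, and the 2 DKO libraries were themselves far apart. The log2 change was -3.34 ± 0.78, with an edgeR adjusted p of 0.493. It was called by DESeq2 (adjusted p = 0.00021) and in edgeR without a filter on low counts (adjusted p = 3.41e-09). Over the class, 0 of 15 members were called by edgeR, beside 2 of 7585 genes (0.0264%), and 1 by DESeq2, beside 43 genes. Without the filter, edgeR called 205 of 16775 genes. In the main edgeR fit 5 members had an unadjusted p below 0.05, beside 540 genes. The median change was -0.24 for the members and -0.01 for all genes. Next in p were Itgal (log2 0.86), Itgb7 (0.83), Itga4 (0.66) and Lamc1 (-0.98). The composition of the class moved with genotype: the 10 macrophage markers summed to 16894, 20509, 13895 and 6421 CPM in DKO replicates 1 and 2 and TKO replicates 1 and 2, and the 8 monocyte markers to 2427, 3274, 4582 and 5232 CPM. Platelet markers were at 331.7, 37.1, 133 and 8.57 CPM, all from Pf4 and Ppbp, with Gp9, Gp1bb and Gp1ba at 0. The part of these in the Itga6 value was not tested. Companions gave 0 calls of 32 by either tool and 1 unadjusted p below 0.05, led by Fyb (log2 0.84), Fn1 (-1.54) and Parvg (-0.86).

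In epithelial-like cells, the lineage of the Cre driver, 0 of 21 members were called by edgeR or DESeq2, beside 0 of 9768 genes by edgeR (0%) and 40 by DESeq2. Beside 555 genes (5.68%), 2 members had an unadjusted p below 0.05 (9.52%). These were Itga5, at 14.3, 49.6, 5.75 and 10.9 CPM in DKO replicates 1 and 2 and TKO replicates 1 and 2 (log2 -2.12 ± 0.70, edgeR adjusted p = 0.828), and Itga4, at 5.37, 5.01, 13.4 and 10.9 CPM (1.29 ± 0.50, edgeR adjusted p = 0.836). Fibroblast markers were at 1246.5 CPM in DKO replicate 2, where Itga5 was highest, and at 239 to 443 CPM in the others. T markers, beside Itga4, were at 29.6, 67.8, 93.3 and 134 CPM in the same order. Their part was not tested. Lamc1 (-0.49) and Itga2 (-0.66) came next, and each was lower in both TKO libraries than in both DKO libraries without passing. The 16 epithelial markers of the class were also lower in TKO (21116, 20919, 16034 and 14835 CPM in the same order), as were the 11 luminal markers (21348, 16592, 11873 and 12351 CPM) and the median depth (20132, 21764, 10173 and 8202 UMIs per cell). Their part in the member values was not tested. The median over the 21 members was -0.27, against 0.02 over all genes. Of 45 companions, edgeR called 0 and DESeq2 1, Fyb, a leukocyte adaptor (10.8 and 10.0 against 38.4 and 67.0 CPM, log2 2.30, edgeR adjusted p = 0.439), and 3 had an unadjusted p below 0.05 (Fyb, Fermt3 and Apbb1ip). The edgeR companion calls varied with the library left out, in fits that held 1 library of a genotype.

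In fibroblast-like cells 0 of 32 members passed with either tool, beside 0 of 10839 genes by edgeR (0%) and 10 by DESeq2. An unadjusted p below 0.05 was found for 5 members, beside 409 genes. The median change was -0.20 for the members and 0.00 for all genes. Itga6 (log2 -2.12), Itgax (-1.29) and Itga3 (-2.48) were lower in TKO and Itga9 (0.94) and Itga11 (1.12) higher, all at an edgeR adjusted p of 0.997. Itga6 and Itga3 were sparse (9, 40, 8 and 3 UMIs, and 14, 17, 6 and 0 UMIs). The 16 epithelial markers in these cells were at 881, 257, 80.4 and 140 CPM in DKO replicates 1 and 2 and TKO replicates 1 and 2. Dendritic markers, beside Itgax, were at 1392, 1924, 573 and 1104 CPM, and smooth muscle and pericyte markers at 1578, 738, 627 and 424 CPM in the same order. Their part in these values was not tested. Of 47 companions, edgeR called 0 and DESeq2 1 (Cdh1, log2 -4.26), 2 had an unadjusted p below 0.05, and Zyx (0.48) and Fn1 (-0.89) followed.

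The other leukocyte classes gave no call among members with edgeR or DESeq2. In T- and NK-like cells 0 of 17 passed, beside 0 of 10026 genes (0%). An unadjusted p below 0.05 was found for 2 (11.8%, against 5.7% of all genes). Itgam was at 8.52, 10.3, 19.5 and 21.2 CPM in DKO replicates 1 and 2 and TKO replicates 1 and 2 (log2 1.00 ± 0.35, edgeR adjusted p = 0.723). Itga1 was at 56.2 and 64.5 against 47.1 and 37.1 CPM (-0.60 ± 0.22). Neutrophil markers in these cells were at 157, 158, 387 and 288 CPM in the same order, and monocyte markers at 746, 786, 431 and 427 CPM. The natural killer cluster, where Itga1 was higher than in the Cd4 cluster, held 18 of 43, 48 of 128, 52 of 226 and 52 of 201 cells of the class. The part of these in the Itgam and Itga1 values was not tested. Itgb1 (-0.26), Itgb3 (-0.34) and Itgax (-0.36) followed, and the median change was -0.03 for the members and -0.01 for all genes. In dendritic-like cells 0 of 17 passed, beside 3 of 9074 genes (0.0331%). An unadjusted p below 0.05 was found for 1 (5.88%, against 6.87% of all genes), Itga3 (4.98 and 7.58 against 13.1 and 14.1 CPM, log2 1.12 ± 0.42). Itga1 (2.26) followed, at 4.98, 6.31, 9.37 and 45.7 CPM in 9.30%, 9.09%, 6.67% and 29.7% of cells, so that TKO replicate 1 was barely above DKO by CPM and below it by share. Itgax (-0.42), Itgam (-0.46) and Itga5 (-0.43) came next, and the median change was -0.11 for the members and 0.00 for all genes. In neutrophil-like cells, the class with the most cells, 0 of 15 passed, beside 1 of 8871 genes (0.0113%), and 0 had an unadjusted p below 0.05, against 4.22% of all genes. Itgb5 (0.97), Itga4 (0.51), Lamb3 (-0.38), Itgae (0.89) and Itgax (0.40) had the smallest p there, and the median change was 0.03 for the members and 0.00 for all genes. Companions had 0 calls with either tool in all 3 classes. At an unadjusted p below 0.05 were 5 of 40 (12.5%), 1 of 33 (3.03%) and 0 of 40, against 5.7%, 6.87% and 4.22% of all genes. Those with the smallest p were Cdh1 (-0.92), Smoc2 (2.81) and Dst (0.98) in T- and NK-like cells, Ptk2 (1.09), Cd81 (0.64) and Dst (-1.07) in dendritic-like cells, and Vcam1 (-1.33), Parvg (0.63) and Dst (-0.94) in neutrophil-like cells. Member and companion calls of edgeR in dendritic-like cells varied with the library left out, in fits that held 1 library of a genotype.

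Over all retained cells summed, 0 of 36 members passed with edgeR, beside 0 of 15466 genes (0%). DESeq2 called 3 members (Itga2, Itga4 and Itga6), beside 352 of the 15466 genes. The median change was -0.21 for the members and -0.02 for all genes. An unadjusted p below 0.05 was found for 9 members, 3 higher and 6 lower in TKO, beside 1830 genes. Itga6 was at 43.9, 60.9, 23.5 and 27.2 CPM in DKO replicates 1 and 2 and TKO replicates 1 and 2 (log2 -1.09 ± 0.19, edgeR adjusted p = 0.209). Itga4 was at 112 and 109 against 175 and 174 CPM (0.61 ± 0.12, edgeR adjusted p = 0.252). Itga2 (-1.34), Lama5 (-1.11) and Itgb7 (0.62) followed. The epithelial-like share of cells was 5.67%, 11.6%, 4.30% and 3.26% in the same order, and the T- and NK-like share 6.97%, 16.9%, 18.7% and 25.2%. In such sums, fewer cells of a type and less RNA per cell cannot be told apart. Of 53 companions, edgeR called 0 and DESeq2 4 (Cdh1, Fn1, Fyb and Vcl), 15 had an unadjusted p below 0.05, and Fyb (0.85), Ntn4 (-0.90) and Cdh1 (-1.31) had the smallest.

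**Figure D5:**
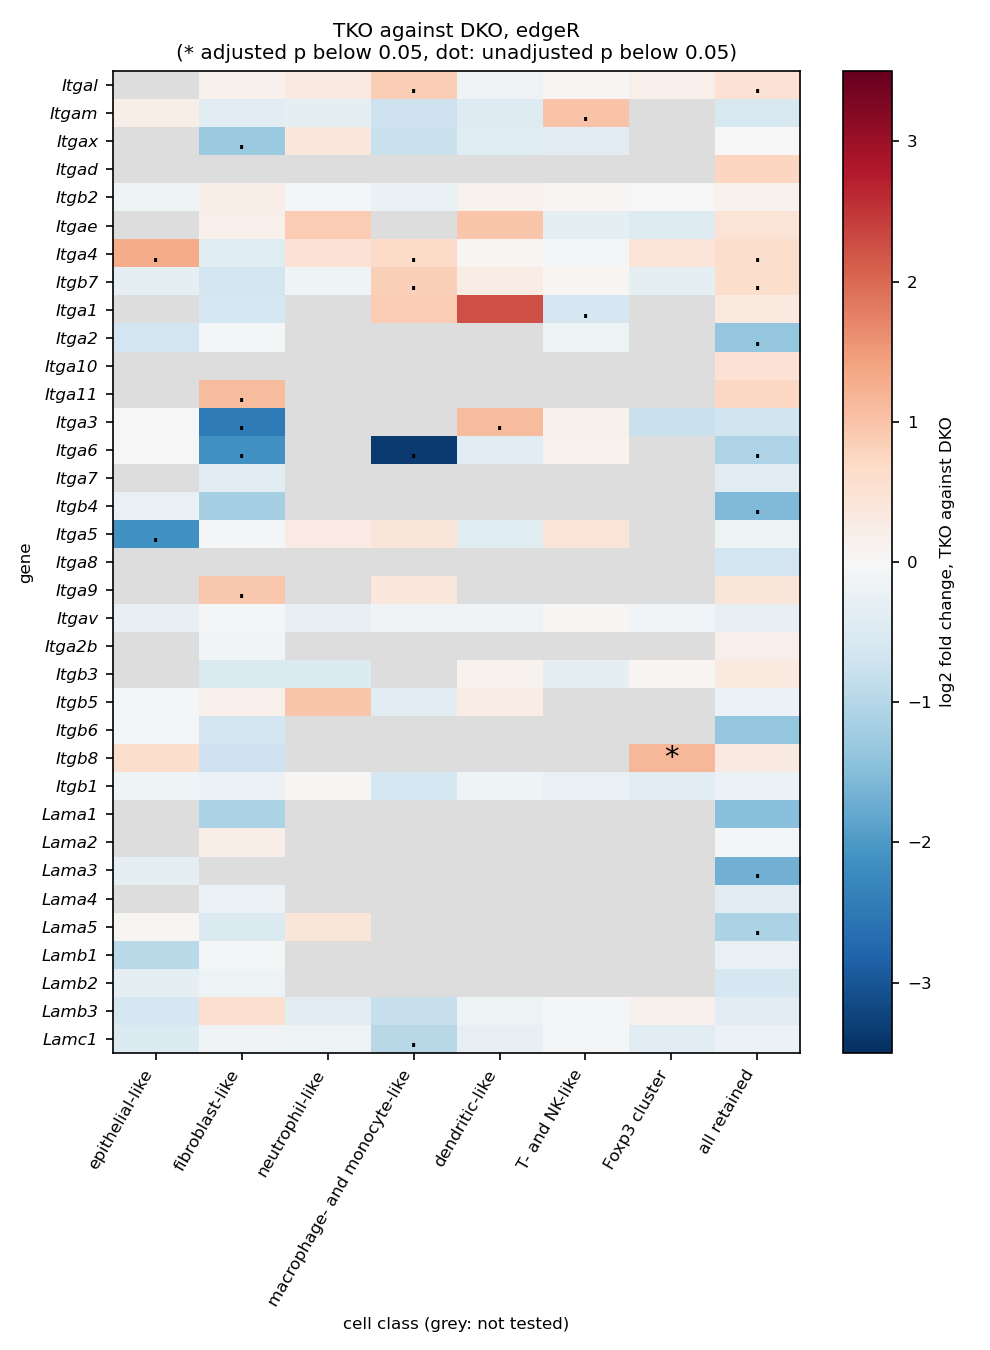
Log2 change of TKO against DKO (colour) for 35 of the 36 members tested in at least 1 class (rows) in 7 classes and in all retained cells summed (columns). Grey marks members not tested, a star an edgeR adjusted p below 0.05 (Itgb8 in the Foxp3 cluster), and a dot an unadjusted p below 0.05.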

How the data were processed

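The deposited values are whole-number UMI counts per gene and cell, not normalised, per the file headers and values. They were made with Cell Ranger 7.0.0 and STAR on mm10, per the submitters' processing notes. Barcodes were kept from 200 detected genes upward, with no more than 20% of UMIs mitochondrial. Scrublet marked 13 cells as doublets, and doublets were kept. Leiden clusters (scanpy 1.11.5, leidenalg 0.10.2, 2000 variable genes without the members, 30 components, 20 neighbours, resolution 1.0) were named where a marker list scored above 0.5, at least 3 of its markers were raised by 1.0 (log2), and markers of another list did not outnumber its own among its top 10 genes. The low-UMI cluster (34 cells) met these conditions for the fibroblast list but stayed unnamed by a further condition. Its median depth was below 1/3 of that of its libraries, and none of the list's markers were among its top 10 genes. This naming rule came after a look at the data, and 5 clusters (15.4% of cells) stayed unnamed. Classes holding 20 cells or more in each library gave 1 sum of counts for each library, and the sums went into edgeR 4.0.16 in R 4.3.3 (TMM, filterByExpr, robust quasi-likelihood, genotype only, Benjamini-Hochberg over all genes tested at 0.05). Standard errors are those implied by the change and its p. B- and plasma-like, endothelial-like, mast-like and type 2 innate lymphoid-like cells, and the clusters led by Il17a and Zbtb16, by Cd163l1 and Trdc and by Gpnmb and Atp6v0d2, had too few cells in a library for a fit, and no cluster was named smooth muscle- or pericyte-like. The fit of the Foxp3 cluster was added after seeing the data. With 2 libraries against 2, an exact permutation test allows no p below 0.333. Alternatives were RLE scaling, DESeq2 1.42.0, no filter, each library left out, a replicate block, resolutions 0.5 and 2.0, members kept among the variable genes, stricter cells (from 500 genes, up to 10% mitochondrial) and, added later, unnamed clusters added to the T- and NK-like and neutrophil-like classes where that list scored highest. For shares, cells were thinned to 1000 UMIs and shallower cells left out. The text names each member in its highest class, and per fit every called member or else the 5 with the smallest p, and likewise 3 of 55 companion genes (integrin linkers, hemidesmosome and basement membrane partners, ligands). The members, lists and tests were chosen with earlier results of these data known. Positions are from GENCODE M21, where all 37 members matched, and 13 overlap another gene of the files. Results for 1 member and 1 of the floxed alleles are not reported here.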

Additional observations from a re-analysis of the deposited data

Results flagged for a closer look

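Only the 5 members with the smallest p in each fit were screened, and the share of all genes with such a pattern was not counted. For 4 of these members, CPM in both TKO libraries lay above both DKO libraries in 1 class and below them in another. The difference between classes was not tested for any of them, and none of the changes passed edgeR's threshold. The log2 changes differed by 2.86 for Itga1 (2.26 in dendritic-like cells, mostly from TKO replicate 2 at 45.7 CPM against 4.98 to 9.37 CPM in the others, and -0.60 in T- and NK-like cells), by 3.60 for Itga3 (1.12 in dendritic-like and -2.48 in fibroblast-like cells), by 1.46 for Itgam (1.00 in T- and NK-like and -0.46 in dendritic-like cells) and by 1.69 for Itgax (0.40 in neutrophil-like and -1.29 in fibroblast-like cells).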

How the results depend on the processing

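Of 40 named member changes under 473 alternatives, 455 kept their direction and their side of the threshold. Only 1 of the 40, Itgb8 in the Foxp3 cluster, was called in the main fit. For the others, keeping their side meant staying uncalled, so the 455 says little about stability. The Itgb8 call in the Foxp3 cluster was lost with DESeq2 (0 members called) and with members kept among the variable genes (0), and the count ranged from 0 to 1 over the fits that left out 1 library. DESeq2 called 3 members in all retained cells (Itga2, Itga4, Itga6) and 1 in macrophage- and monocyte-like cells (Itga6), beside 352 and 43 genes. Without a filter on low counts, 1 member was called in each of all retained cells (Itga6), dendritic-like (Itga1), epithelial-like (Itga5) and macrophage- and monocyte-like cells (Itga6). All genes called there numbered 276, 228, 247 and 205. With 1 library left out, member calls also varied in all retained, dendritic-like and macrophage- and monocyte-like cells. Those fits held 1 library of a genotype, so the calls they gained are not counted here. For companions, DESeq2 called 4 in all retained cells, 1 in epithelial-like and 1 in fibroblast-like cells, beside 352, 40 and 10 genes. No filter gave 2, 2 and 2 there, beside 276, 247 and 166 genes. It also gave 1 each in dendritic-like and macrophage- and monocyte-like cells. Resolution 2.0 gave 1 in dendritic-like cells, beside 6 genes. With 1 library left out, companion calls varied in all retained, dendritic-like, epithelial-like, fibroblast-like and macrophage- and monocyte-like cells. The cause was not tested. Itgae in the Foxp3 cluster ranged from -1.05 to 0.069 (log2) with 1 library left out and turned positive without TKO replicate 1, and Itgb1 in T- and NK-like cells turned to 0.066 with unnamed clusters added. Same-numbered libraries share only a number (correlation of their deviations -0.0447 to 0.373). The replicate block called 1 member in macrophage- and monocyte-like cells (Itga6, log2 -3.40, edgeR adjusted p = 0.0468), beside 7 of 7585 genes. It called 1 companion in fibroblast-like cells (Cdh1), beside 25 of 10839 genes. Itgb8 stayed called in the Foxp3 cluster (edgeR adjusted p = 0.00108), where the block called 62 of 5624 genes, against 16 without it. The highest class was the same for 36 of 37 members with members kept among the variable genes, 35 at resolution 0.5 and 36 at 2.0. With 2 libraries a genotype and 24 cells in the smallest Foxp3-cluster library, smaller changes may not be detectable.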

Other observations

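Partners of the integrins and laminins were also read by class. Npnt, a ligand of the Itga8 receptor, was highest in lymphoid clusters: 174 ± 65.1 CPM in the Cd163l1 and Trdc cluster, 154 ± 45.5 CPM in the Foxp3 cluster and 127 ± 62.1 CPM in type 2 innate lymphoid-like cells. Lrrc32, which holds latent TGF-beta at the cell surface, was at 42.6 ± 8.27 CPM in the Foxp3 cluster and at 117 ± 43.4 CPM in fibroblast-like cells. Tgfb1 was highest in macrophage- and monocyte-like cells (513 ± 67.4 CPM). Thbs1, a matrix protein of platelets and myeloid cells, was at 3472 ± 382 CPM in neutrophil-like cells, and Icam1, the counter-receptor of the beta-2 integrins, at 612 ± 95.5 CPM there. The linker Fermt1 was highest in epithelial-like cells (65.8 ± 30.6 CPM) and Fermt3 in macrophage- and monocyte-like cells (153 ± 12.8 CPM).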
